A study of Mus musculus with 24 samples.

Results

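The core factors of the early gonad were 6 genes, *Wt1*, *Nr5a1*, *Lhx9*, *Emx2*, *Cited2* and *Tcf21*, picked by name from 22367 annotated protein-coding genes, and from 37310 annotated genes of every type. All 6 encode regulators of transcription that the gonadal primordium uses before it becomes a testis or an ovary. H3K4me3 is deposited by Trithorax group complexes at active promoters, and H3K27me3 is deposited by Polycomb group complexes at silenced ones. A promoter that carries both marks is called bivalent, and many regulators of development hold this state before a lineage is chosen.

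The study set out to map both marks in supporting cells before and after sex determination, with total H3 as the control, by ChIP-seq on micrococcal nuclease-digested chromatin. Progenitor cells were sorted from XY and XX gonads at E10.5 with an SF1-eGFP reporter, Sertoli cells from XY gonads at E13.5 with a Sox9-CFP reporter, and pregranulosa cells, which the labels call granulosa, from XX gonads at E13.5 with a TESM-CFP reporter, which carries a mutated *Sox9* testis enhancer. All embryos were of a C57BL/6 x CD1 background, each of the 2 replicates pooled cells of several embryos, and *Drosophila* chromatin was added as a carrier. SF1 is the protein of *Nr5a1*, so the progenitor sort used a reporter of one of the 6 genes. The 24 samples (3 antibodies, 4 populations, 2 replicates) were represented by 8 peak lists, 1 per mark and population. The series text describes each list as made from both replicates, which the headers show for the 4 progenitor lists only. With 1 list per group there was no spread between replicates and no test between populations. Every value was a description of where a mark was called, not of how strong it was.

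Depth differed between the lists. In XY progenitors 10162534 H3K4me3 tags and 6470151 H3K27me3 tags were used, in XX progenitors 49254553 and 33185400, and in Sertoli cells 31104760 and 44446456. The depth of the pregranulosa lists is unknown because they carry no header. Their H3K27me3 list held 12609 peaks, none of which overlapped or touched, whereas the other 3 held 36469, 74001 and 74154 peaks that were joined here into 9693, 9309 and 13313 regions, so widths come from lists of different form. Joined H3K27me3 regions covered 90.9 Mb of the genome in XY progenitors, 144 Mb in XX progenitors, 158 Mb in Sertoli cells and 173 Mb in pregranulosa cells. The part of depth in any call or width below was not tested.

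The labelled cell types were compared with fixed lists of marker genes. In Sertoli cells 7 of 7 Sertoli markers had H3K4me3 within TSS ± 2 kb and 0 of 7 had H3K27me3, whereas in pregranulosa cells 5 of 7 had H3K4me3 and 5 of 7 had H3K27me3. All 7 pregranulosa markers had H3K4me3 in both E13.5 populations, and H3K27me3 was at 7 of 7 in Sertoli cells and 4 of 7 in pregranulosa cells. These 4 were *Foxl2* and *Irx3* (4001 bp each), *Lef1* (3635 bp) and *Fst* (1284 bp). The study reports that *Foxl2* and *Lef1* lose H3K27me3 at the TSS in pregranulosa cells. For *Foxl2* it states that a window of TSS ± 2 kb does not show this. Among 6 germ cell markers, H3K4me3 was at 1 in XY progenitors, 2 in XX progenitors, 3 in Sertoli cells and 2 in pregranulosa cells, and H3K27me3 at 3, 2, 2 and 1. *Dazl* had H3K4me3 alone in every list, *Dppa3* had H3K4me3 in all but the XY progenitor list and H3K27me3 over 4001 bp in all but the pregranulosa list (0 bp), *Pou5f1* had it in Sertoli cells alone (1001 bp) and H3K27me3 over 4001 bp in every list, and *Ddx4* and *Nanos3* had neither mark in any. Among 5 endothelial markers, H3K4me3 was at 1, 1, 1 and 2, and *Kdr* had both marks in every list. All 6 markers of mesonephric tubules and nephrons carried both marks in all 4 populations. Among 5 steroidogenic markers H3K4me3 was at 1, 3, 2 and 3 and H3K27me3 at 1 in each population (*Insl3*), and among 3 markers of the coelomic epithelium H3K4me3 was at 2, 3, 1 and 2 and H3K27me3 at 1, 1, 2 and 1.

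At E10.5 the 6 genes shared 1 pattern with a single exception. H3K4me3 overlapped the promoter (TSS ± 2 kb, a window of 4001 bp) of 6 of 6 genes in XY progenitors and 6 of 6 in XX progenitors, and H3K27me3 overlapped 5 of 6 in each, so *Wt1*, *Nr5a1*, *Lhx9*, *Emx2* and *Tcf21* were bivalent in both sexes and *Cited2* carried H3K4me3 alone. For comparison, H3K4me3 marked 64.2% of all protein-coding promoters in XY progenitors and 66.0% in XX progenitors, and H3K27me3 marked 23.0% and 24.8%. Promoters that were bivalent in both progenitor populations made up 18.8% of the 22367 (4197 promoters, 95% exact Clopper-Pearson interval 18.3 to 19.3%, which covers counting error only).

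At E13.5 H3K4me3 was at 6 of 6 promoters in Sertoli cells (64.9% of all protein-coding promoters) and 6 of 6 in pregranulosa cells (66.3%). H3K27me3 was at 3 of 6 in Sertoli cells (23.5% of all) and at 1 of 6 in pregranulosa cells (23.7% of all). The 5 genes that were bivalent at E10.5 divided into 3 groups. *Wt1* and *Nr5a1* had no H3K27me3 at the promoter in either E13.5 population, a fate shared by 10.7% of the 4197 promoters that were bivalent in both progenitors. *Lhx9* and *Emx2* had it in Sertoli cells but lacked it in pregranulosa cells, as did 4.84% of the 4197. *Tcf21* had it in both, as did 76.0%. None of the 5 had it in pregranulosa cells alone, which held for 8.51%. The place of *Emx2* rests on the edge of its window, since the Sertoli region reached 525 bp into it and did not cover the TSS. The median coverage of the window by H3K27me3 over the 6 genes was 4001 bp in each progenitor population, 262.5 bp in Sertoli cells and 0 bp in pregranulosa cells, and over all protein-coding genes it was 0 bp in each. *Cited2* was among the 36.7% of protein-coding promoters with H3K4me3 in all 4 populations and H3K27me3 in none.

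**Figure D1:**
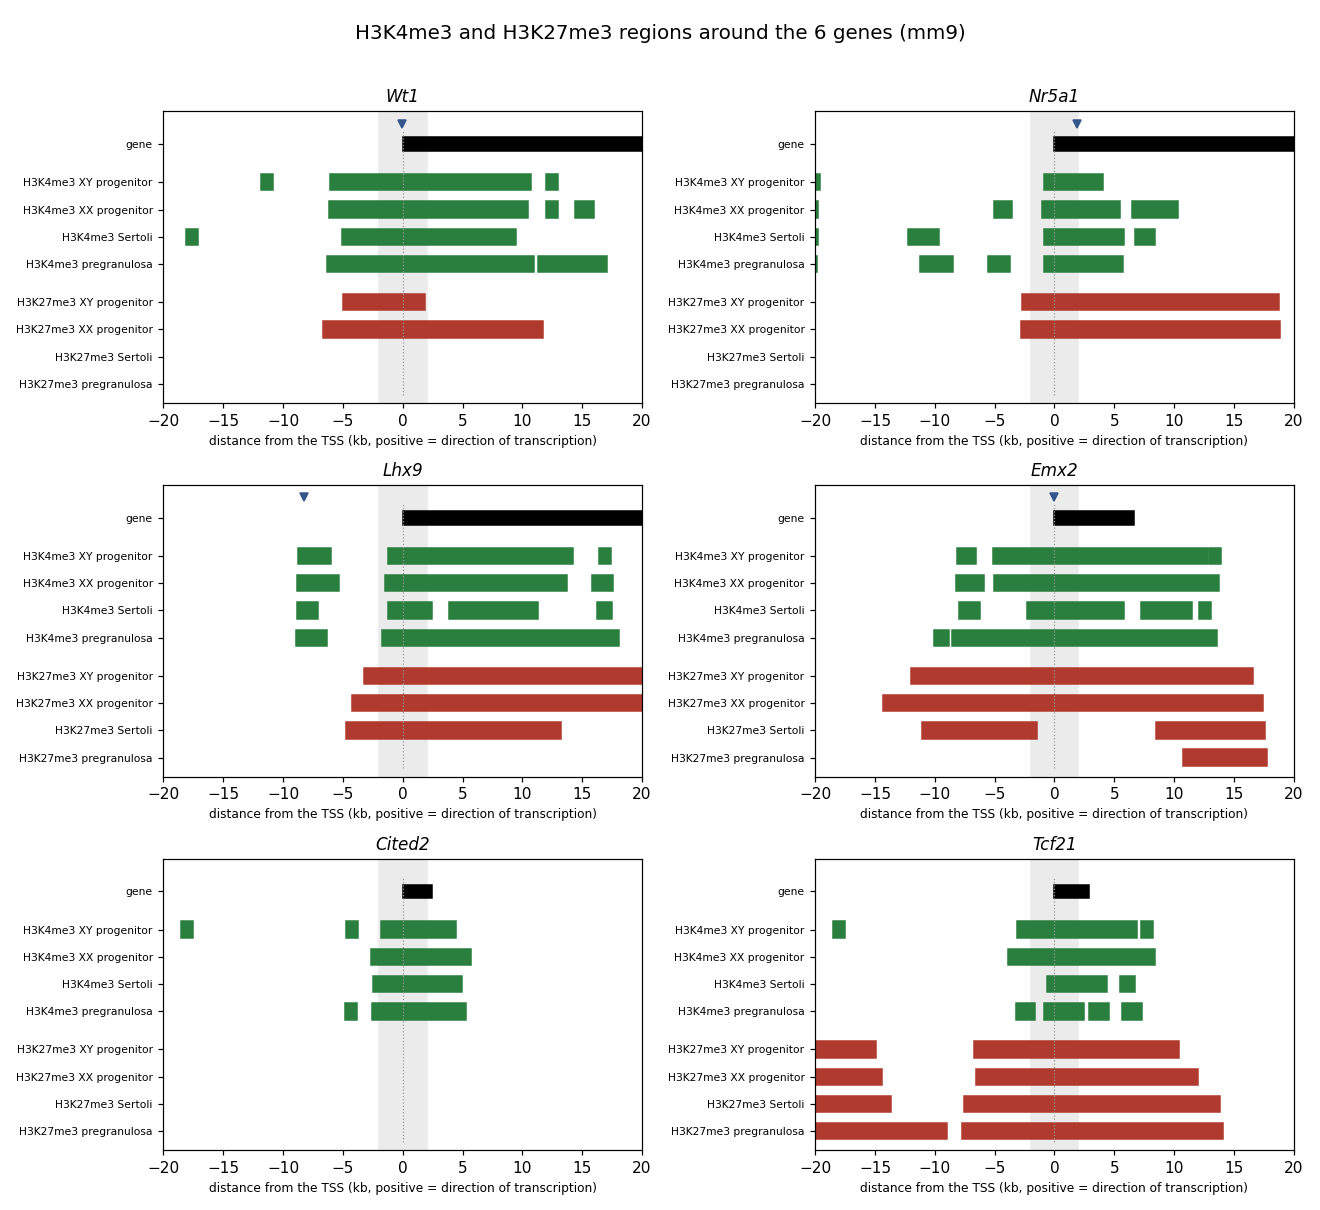
Maps of the 6 genes, 1 panel each, with the distance from the TSS in kb on the horizontal axis and the 8 lists as rows. Green blocks are H3K4me3 regions, red blocks are H3K27me3 regions, the black bar is the gene, the grey band is TSS ± 2 kb, triangles are the start sites of annotated neighbours, and whatever lies beyond 20 kb is left off. H3K27me3 is missing from *Wt1* and *Nr5a1* in both E13.5 populations, leaves a bare stretch of 9.97 kb over *Emx2* in Sertoli cells, is at *Tcf21* in all 4 populations and is at *Cited2* in none.

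*Wt1* encodes a zinc finger protein that the urogenital ridge needs to grow. The gene occupies positions 104966686 to 105013773 of chromosome 2 (mm9, plus strand), and its transcript with the longest coding sequence has 10 exons. In each of the 4 populations the entire window of 4001 bp was under H3K4me3. The region there ran from -6064 to 10724 bp relative to the TSS in XY progenitors, from -6188 to 10501 bp in XX progenitors, from -5035 to 9435 bp in Sertoli cells and from -6338 to 11012 bp in pregranulosa cells, and in each population it took in exons 1 to 3. In width this region was placed 13 among the 14354 protein-coding promoters with H3K4me3 in XY progenitors, 40 of 14760 in XX progenitors, 3 of 14514 in Sertoli cells and 4 of 14835 in pregranulosa cells. Few promoters therefore had a wider H3K4me3 region than *Wt1* in any population.

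H3K27me3 at *Wt1* covered 3860 bp of the window in XY progenitors, 4001 bp in XX progenitors and 0 bp in both E13.5 populations. In XY progenitors the region reached from -4.98 to 1.86 kb and touched exon 1, and in XX progenitors it reached from -6.66 to 11.7 kb and touched exons 1 to 3, so the XX region had nearly the same bounds as the H3K4me3 region. The XX list had been called from more tags than the XY list (33185400 and 6470151). In Sertoli cells the nearest H3K27me3 region began 53.8 kb downstream of the TSS, beyond the 3′ end of the gene, and in pregranulosa cells it began 77.0 kb downstream. Upstream, the nearest regions were 380 kb and 271 kb away. The lincRNA gene *AI314831* starts on the opposite strand at -19 bp from the *Wt1* TSS, so their promoter windows nearly coincide. The window of *AI314831* therefore held the same marks in the same populations (H3K27me3 over 3879 bp, 4001 bp, 0 bp and 0 bp).

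*Wt1* has 8 annotated transcript starts. The starts at 4271 to 4373 bp downstream of the first had all 4001 bp of their windows under H3K4me3 in every population, while H3K27me3 covered 4001 bp there in XX progenitors and 0 bp in XY progenitors. The last start, 36279 bp downstream, had H3K4me3 in XX progenitors alone (1001 bp) and no H3K27me3.

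*Nr5a1* encodes SF1, the nuclear receptor that controls steroidogenic genes and *Amh*. It lies on chromosome 2 from 38548176 to 38570062 (minus strand). H3K4me3 covered 2841 bp of the window in XY progenitors, 3063 bp in XX progenitors, 2838 bp in Sertoli cells and 2869 bp in pregranulosa cells. The region was asymmetric in each list, from -0.84 to 4.04 kb in XY progenitors, -1.06 to 5.45 kb in XX progenitors, -0.837 to 5.81 kb in Sertoli cells and -0.868 to 5.73 kb in pregranulosa cells. It therefore lay mainly downstream of the first TSS, and around the start located 2308 bp downstream H3K4me3 covered 3729 bp of the window in XY progenitors and all 4001 bp in the other 3 populations.

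H3K27me3 spanned most of *Nr5a1* at E10.5. It covered 85.7% of the gene body in XY progenitors and 86.4% in XX progenitors, as a region of 21.5 kb and 21.7 kb that started at -2.73 kb and -2.82 kb, and it took in exons 1 to 6 of 7 in each sex. A further region, from 22.0 to 29.8 kb in XY progenitors and from 21.9 to 28.3 kb in XX progenitors, began just past the 3′ end of the gene in XY progenitors and touched exon 7 in XX progenitors. In Sertoli and pregranulosa cells no H3K27me3 region touched the gene (0% of the body), and the nearest regions began 39.1 kb and 40.9 kb downstream of the TSS, over the *Gpr144* pseudogene. At *Gpr144* itself H3K27me3 covered 2147 bp of the promoter window in XY progenitors and 4001 bp in the other 3 populations. The E13.5 populations thus lacked H3K27me3 at *Nr5a1* and had it at its downstream neighbour.

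H3K4me3 outside the *Nr5a1* promoter varied more between populations than at the promoter. Sites from -22.5 to -19.6 kb, inside *Nr6a1*, and from 24.4 to 26.6 kb, between *Nr5a1* and *Gpr144*, were called in all 4 populations. A site from -12.3 to -8.50 kb, which overlaps the 3′ end of *Nr6a1*, was called in Sertoli and pregranulosa cells and in neither progenitor population. A site from -5.57 to -3.56 kb, within the lincRNA gene *4933433P16Rik*, was called in XX progenitors and pregranulosa cells and in neither XY population. An internal site from 6.48 to 10.3 kb was called in XX progenitors, where it ran from the 3′ part of exon 4 into the next intron, and in Sertoli cells, where it was intronic (6.70 to 8.39 kb). The H3K4me3 list had 10162534 tags in XY progenitors and 49254553 in XX progenitors, and the part of depth in these calls was not tested.

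*Lhx9* and *Emx2* encode homeodomain proteins needed for growth of the coelomic epithelium into the gonad. *Lhx9* lies on chromosome 1 from 140721763 to 140745153 (minus strand). H3K27me3 covered the whole 4001 bp window in XY progenitors, XX progenitors and Sertoli cells and 0 bp in pregranulosa cells. In XY progenitors 96.2% of the gene body was under H3K27me3, in XX progenitors 86.4%, in Sertoli cells 56.6% and in pregranulosa cells 0%. This region ended at 22.5 kb, 20.2 kb and 13.2 kb in the first 3 populations, so the Sertoli region was narrower at its 3′ side (18018 bp wide, against 25727 bp in XY progenitors). In pregranulosa cells the nearest H3K27me3 region downstream of the TSS began 1005 kb away.

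H3K4me3 at *Lhx9* covered 3255 bp of the window in XY progenitors, 3454 bp in XX progenitors, 3258 bp in Sertoli cells and 3721 bp in pregranulosa cells. The width of the region set the populations further apart, with 15.5 kb, 15.2 kb, 3.73 kb and 19.8 kb. In pregranulosa cells it was in place 2 among 14835 protein-coding promoters, and in Sertoli cells in place 2831 of 14514. The Sertoli signal was broken into regions from -1.26 to 2.48 kb, 3.88 to 11.3 kb and 16.2 to 17.5 kb. Gaps of this kind were sensitive to how regions were joined, and joining regions less than 5 kb apart gave 26164 bp in XY progenitors, 26431 bp in XX progenitors, 18737 bp in Sertoli cells and 26939 bp in pregranulosa cells, with the first 3 more than 1.5 times wider than before. The neighbour *2310009B15Rik*, whose TSS is at -8278 bp, had H3K4me3 in all 4 populations and H3K27me3 at its promoter in none. The H3K27me3 region at *Lhx9* thus ended before the next promoter. Joining at 5 kb took the H3K4me3 site of this neighbour into the *Lhx9* region in all populations but Sertoli cells. Upstream, the joined regions began at -8763 bp in XY progenitors, -8840 bp in XX progenitors, -1257 bp in Sertoli cells and -8892 bp in pregranulosa cells. On the 3′ side they ended at 17400 bp, 17590 bp, 17479 bp and 18046 bp. The lower joined Sertoli width therefore lay at this neighbour and not on the 3′ side.

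*Emx2* lies on chromosome 19 from 59533180 to 59539847 (plus strand) and has 3 exons. At E10.5 it stood within a single H3K27me3 region of 28.5 kb in XY progenitors (-12.0 to 16.6 kb) and 31.7 kb in XX progenitors (-14.3 to 17.4 kb), which covered 100% of the gene body. In Sertoli cells H3K27me3 lay on either side of the gene, from -11.1 to -1.48 kb and from 8.50 to 17.6 kb, with a bare stretch of 9972 bp between these regions and 0% of the gene body covered. In pregranulosa cells a region lay on the downstream side, from 10.8 to 17.7 kb, and upstream the nearest region was 192 kb away. The outer bound on the downstream side was thus between 16.6 and 17.7 kb in all 4 populations, while the bounds nearest to the gene differed.

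H3K4me3 covered all 4001 bp of the *Emx2* window in every population, and 100%, 100%, 87.5% and 100% of the gene body in XY progenitors, XX progenitors, Sertoli cells and pregranulosa cells. The region was 17965 bp, 18774 bp, 8153 bp and 22099 bp wide. In pregranulosa cells it was the widest of 14835 protein-coding promoters (place 1), in XY progenitors it was in place 11, in XX progenitors in place 34 and in Sertoli cells in place 129. *Emx2os*, a lincRNA gene on the opposite strand, starts at -55 bp from the *Emx2* TSS, so their promoter windows nearly coincide. H3K27me3 covered 4001 bp, 4001 bp, 580 bp and 0 bp of the *Emx2os* window. *Lhx9* and *Emx2* thus had their widest H3K4me3 region in pregranulosa cells and their narrowest in Sertoli cells. With regions less than 5 kb apart joined, however, the widths at *Emx2* were 22021 bp, 21987 bp, 21057 bp and 23647 bp, so its low Sertoli width rests on gaps of that size. The low Sertoli width at *Lhx9* likewise rests on such gaps, as its joined ends on the 3′ side were close together.

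*Cited2* encodes a co-regulator without a DNA-binding domain of its own that acts with WT1 on *Nr5a1*. It lies on chromosome 10 from 17443034 to 17445479 (plus strand). H3K4me3 covered 3858 bp of the window in XY progenitors and 4001 bp in the other 3 populations, and 100% of the gene body in all 4. The region was 6.34 kb, 8.29 kb, 7.41 kb and 7.84 kb wide in XY progenitors, XX progenitors, Sertoli cells and pregranulosa cells. No H3K27me3 region lay within 20 kb of the gene in any list, and the nearest one was 593 kb away in each progenitor population, 63.2 kb in Sertoli cells and 63.7 kb in pregranulosa cells. No other annotated gene lay within 20 kb.

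*Tcf21* encodes a basic helix-loop-helix protein that represses *Nr5a1* in the early gonad. It lies on chromosome 10 from 22537085 to 22539934 (minus strand). H3K27me3 covered 4001 bp of the window and 100% of the gene body in all 4 populations. The region was 17.1 kb in XY progenitors and 21.4 kb in Sertoli cells, and 18.5 kb in XX progenitors and 21.9 kb in pregranulosa cells. A second region upstream was 5.00 kb in XY progenitors and 23.6 kb in Sertoli cells, and 6.43 kb in XX progenitors and 29.5 kb in pregranulosa cells. Joining regions less than 5 kb apart merged these in pregranulosa cells alone, where with further regions the joined one was 120983 bp wide. In the upstream flank of 20 kb H3K27me3 covered 58.6%, 61.0%, 69.6% and 93.8% in XY progenitors, XX progenitors, Sertoli cells and pregranulosa cells. The E13.5 values were thus the higher ones in both sexes, in lists that also covered more of the genome.

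H3K4me3 at *Tcf21* had the opposite order, with less window coverage and narrower regions at E13.5. The pregranulosa width, however, depended on how regions were joined. The mark covered 4001 bp of the window in both progenitor populations, 2594 bp in Sertoli cells and, in separate regions, 3216 bp in pregranulosa cells. The region over the TSS was 10.1 kb wide in XY progenitors, 12.2 kb in XX progenitors, 4.98 kb in Sertoli cells and 3.29 kb in pregranulosa cells. By place among protein-coding promoters, *Tcf21* was 39 of 14354 and 64 of 14760 at E10.5, and 1117 of 14514 and 5748 of 14835 at E13.5. The pregranulosa signal was split into several regions, and joining those less than 1 kb apart gave 7793 bp. Together these regions ran from -3.21 to 7.35 kb, with gaps of less than 5 kb between them. The XX progenitor region ran from -3.86 to 8.38 kb. The low pregranulosa width and place thus rest largely on such gaps.

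**Figure D2:**
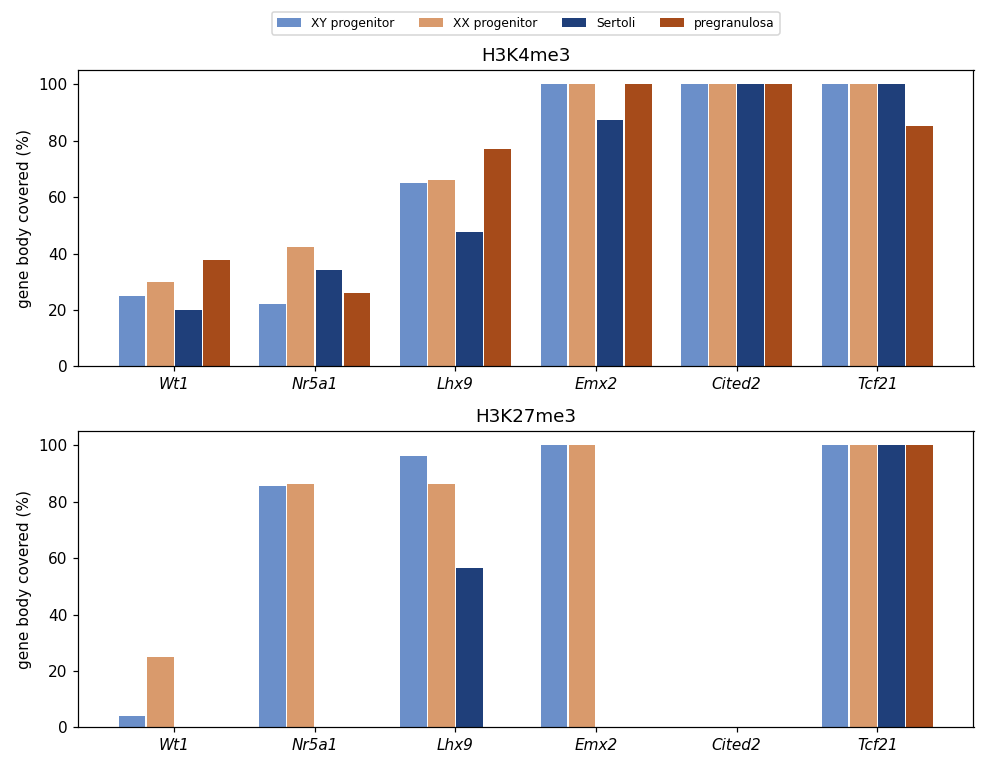
Share of each gene body, in percent, covered by H3K4me3 (upper panel) and H3K27me3 (lower panel), with 1 bar per population and 1 list behind each bar, so no error bars are drawn. The H3K27me3 bars of *Nr5a1* stand at 85.7% and 86.4% in progenitors and at 0% in Sertoli and pregranulosa cells, and those of *Lhx9* go from 96.2% in XY progenitors to 56.6% in Sertoli cells and are absent in pregranulosa cells.

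H3K4me3 covered the whole 4001 bp window in all 4 populations at *Wt1* and *Emx2*, 2 of the 6, and at 0.657% of all protein-coding promoters (147 of 22367). The region at *Cited2* was wider than 98.2% to 98.6% of the H3K4me3 regions at protein-coding promoters in each list, and that at *Nr5a1* was wider than 96.0% to 97.5%. The lowest H3K4me3 value was 61.2%, at *Tcf21* in pregranulosa cells. The signal there was split by gaps of less than 1 kb, so this value depends on how regions were joined. Where H3K27me3 was present, its region was wider than 38.3% (*Emx2* in Sertoli cells) to 92.9% (*Emx2* in XY progenitors) of those at marked promoters. Within 20 kb of the gene bodies there were 24 separate H3K4me3 sites when the 4 populations were merged, of which 9 were called in all 4 populations and 9 in 1. Of the 18 sites away from the promoters, 3 were called in all 4 populations.

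The protein-coding genes with the most similar coverage within TSS ± 20 kb over the 8 lists were identified by the mean absolute difference in covered bases, among 18458 genes. *Lhx9* and *Emx2* were each other's closest match, at 3052 bp, ahead of *Gipc3* (4876 bp) and *Tubg2* (4967 bp) for *Lhx9* and of *Tubg2* (4335 bp) and *Plekhh3* (4573 bp) for *Emx2*. For *Wt1* they were *Hexim1* (2309 bp), an inhibitor of transcription elongation, *Flad1* (2964 bp) and *Plcd3* (2986 bp). For *Nr5a1* they were *Rpp25* (1631 bp), *Frs3* (1811 bp) and *Tomm6* (1833 bp). *Frs3* and *Tomm6* had equal covered bases in every list but H3K4me3 in Sertoli cells (9580 bp and 9400 bp). Genes close to one another were not left out, so these may not be separate matches. *Cited2* was closest to *Hyou1* (152 bp), *Tmem55b* (162 bp) and *Btg1* (201 bp), none with H3K27me3 in any list. *Tcf21* was closest to *Twist1* (1668 bp), another basic helix-loop-helix gene, the LIM homeodomain gene *Lhx1* (1883 bp) and the growth factor gene *Fgf8* (2116 bp), which had H3K27me3 in all 4 populations.

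A list of 7 paralogs, with none for *Wt1*, was read in the same way. *Tcf15* had both marks in all 4 populations, as *Tcf21* did, with H3K4me3 over 3218 bp, 3695 bp, 3430 bp and 3471 bp, and the others differed from their relative among the 6 genes in at least 1 population. *Emx1*, *Lhx2* and *Tcf15* had H3K27me3 over all 4001 bp in each population. *Emx1* had H3K4me3 over 1718 bp in XY progenitors, 4001 bp in XX progenitors, 1969 bp in Sertoli cells and 3232 bp in pregranulosa cells, where *Emx2* had 4001 bp throughout. *Nr5a2*, the nearest relative of *Nr5a1*, had H3K27me3 over 3223 bp, 3804 bp, 4001 bp and 4001 bp, and H3K4me3 in XX progenitors (967 bp) and pregranulosa cells (841 bp). *Cited1*, on the X chromosome, had H3K27me3 over 4001 bp in both progenitor populations and in pregranulosa cells and 0 bp in Sertoli cells. The part of X chromosome number, which differs between XY and XX cells, was not tested. *Cited4* had H3K27me3 in all 4 populations (4001 bp, 4001 bp, 2911 bp and 4001 bp). Both genes were unlike *Cited2* in this. *Tcf23* had no H3K27me3, and it had H3K4me3 in pregranulosa cells alone (1001 bp).

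Other genes that act in the early gonad or upstream of sex determination were read from a fixed list, of which 10 are given. All 10 had H3K4me3 in every population, and H3K27me3 was at 4 in XY progenitors, 5 in XX progenitors, 4 in Sertoli cells and 5 in pregranulosa cells. *Osr1* had H3K27me3 over 4001 bp in every population, as *Tcf21* did. *Podxl*, a surface sialomucin gene, had it over 4001 bp in the progenitors and Sertoli cells and 0 bp in pregranulosa cells, as *Lhx9* did. *Nr0b1*, which encodes the NR5A1 antagonist DAX1 and lies on the X chromosome, had 4001 bp in both progenitor populations and pregranulosa cells and 0 bp in Sertoli cells. Sertoli cells are XY and pregranulosa cells XX, and the part of X chromosome number in this contrast was not tested. *Gadd45g* had 4001 bp in each progenitor population, 0 bp in Sertoli cells and 627 bp in pregranulosa cells. *Six4* had 0 bp in both progenitor populations, 3747 bp in Sertoli cells and 4001 bp in pregranulosa cells. *Cbx2* had 0 bp in XY progenitors and 3378 bp, 3243 bp and 2665 bp in the others. *Map3k4*, *Insr*, *Igf1r* and *Kdm3a* had none, as was the case for *Cited2*.

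Genes controlled by NR5A1 formed a list of 10, of which H3K4me3 marked 7 in XY progenitors, 8 in XX progenitors, 7 in Sertoli cells and 8 in pregranulosa cells, and H3K27me3 marked 5, 6, 2 and 5. *Amh*, the Müllerian inhibiting hormone gene, had H3K4me3 over 150 bp, 664 bp, 3294 bp and 944 bp of the window, and H3K27me3 in pregranulosa cells alone (725 bp). *Inha*, which encodes the inhibin alpha subunit, had H3K4me3 over 1967 bp in XY progenitors and 4001 bp in the other 3 populations, with no H3K27me3. *Sox9* had H3K4me3 over 4001 bp in every population and H3K27me3 over 4001 bp in all but Sertoli cells (0 bp). Between the E13.5 populations H3K27me3 thus differed at *Amh*, *Sox9* and *Nr0b1*, while *Nr5a1* itself had no H3K27me3 in either. H3K4me3 differed at further genes of the list. It covered 0 bp in Sertoli cells and 1253 bp in pregranulosa cells at *Cyp17a1*, and 193 bp and 2945 bp at *Insl3*. At *Cga* it covered 0 bp and 461 bp, and at *Lhb* 624 bp and 0 bp.

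The promoter sequences were read from mm9. In the 1001 bp around the TSS, the ratio of observed to expected CpG was 0.656 at *Wt1*, 0.238 at *Nr5a1*, 0.53 at *Lhx9*, 0.695 at *Emx2*, 0.715 at *Cited2* and 0.51 at *Tcf21*, against a median of 0.549 over all protein-coding genes. *Nr5a1* had the fewest CpG dinucleotides of the 6 (20) at its first TSS, and the start 2308 bp downstream had 106 and a ratio of 0.882. An opposite-strand start within 2000 bp was present at 3 of the 6 (*Wt1*, *Nr5a1* and *Emx2*) and at 17.3% of protein-coding genes.

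Motifs were searched on both strands from 250 bp before to 49 bp after the TSS. GGGCGG (GC box) was at 4 of the 6 genes and 43.4% of all promoters, CANNTG (E-box) at 3 of 6 and 69.6%, CCAAT at 3 of 6 and 37.9%, and TAATTA (a homeodomain core) at 1 of 6, *Emx2*, and 4.83%. CAAGGTCA, an NR5A1 element, was at 0 of 6 and 1.30% of all promoters, and GCGTGGG, a core shared by WT1 and EGR proteins, at 0 of 6 and 5.73%. These are matches of letters and not sites of binding.

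The 250 bases before the TSS are given for 4 genes, *Wt1* and *Emx2* because they share a start with a lincRNA and were free of H3K27me3 at the TSS at E13.5, *Nr5a1* because its H3K27me3 was called in progenitors alone, and *Tcf21* because its H3K27me3 was called in every list. Capitals mark matches to the 6 motifs. In *Nr5a1* the run near the 3′ end joins a CCAAT, an E-box and a second CCAAT on the other strand, which overlap between -32 and -25. *Tcf21* held no match. The positions are chr2:104966436-104966685 (plus strand) for *Wt1*, chr19:59532930-59533179 (plus strand) for *Emx2*, chr2:38570063-38570312 (minus strand) for *Nr5a1* and chr10:22539935-22540184 (minus strand) for *Tcf21*.
Wt1: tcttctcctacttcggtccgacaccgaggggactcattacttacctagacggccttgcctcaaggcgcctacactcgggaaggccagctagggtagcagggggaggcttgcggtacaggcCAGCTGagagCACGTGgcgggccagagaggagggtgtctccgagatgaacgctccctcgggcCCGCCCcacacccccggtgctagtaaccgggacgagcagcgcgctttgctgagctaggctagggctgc
Emx2: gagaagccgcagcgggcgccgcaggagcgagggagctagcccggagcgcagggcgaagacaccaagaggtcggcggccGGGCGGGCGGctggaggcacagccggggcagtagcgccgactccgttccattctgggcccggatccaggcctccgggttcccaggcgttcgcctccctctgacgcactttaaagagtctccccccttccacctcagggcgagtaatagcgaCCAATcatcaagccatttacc
Nr5a1: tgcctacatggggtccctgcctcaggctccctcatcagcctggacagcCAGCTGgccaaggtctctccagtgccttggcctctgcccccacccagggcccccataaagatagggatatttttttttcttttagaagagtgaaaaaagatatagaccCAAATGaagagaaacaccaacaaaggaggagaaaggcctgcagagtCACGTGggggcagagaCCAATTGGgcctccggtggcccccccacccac
Tcf21: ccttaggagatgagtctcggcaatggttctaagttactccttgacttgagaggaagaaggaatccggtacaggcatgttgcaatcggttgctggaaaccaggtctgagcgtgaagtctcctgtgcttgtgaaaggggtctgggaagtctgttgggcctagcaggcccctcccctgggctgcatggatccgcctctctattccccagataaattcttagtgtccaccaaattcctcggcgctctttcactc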

How the data were processed

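H3, H3K4me3 and H3K27me3 ChIP-seq was performed by the authors in 24 samples. Per the submitters' processing notes, Trim Galore, Bowtie, SAMtools and HOMER were used on mm9, with no versions given in the sources used here. The series description states that both replicates entered each of the 8 lists. The headers of 4 progenitor lists name concatenated tag directories, those of the 2 Sertoli lists do not, and the 2 pregranulosa lists have no header. Per the file headers, peaks needed 4-fold over H3 and over the local region. The deposited score values were identical for every peak in the 6 lists that have them and were not used as a level.

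Peaks of a list that overlapped or touched were joined into regions. Gene positions came from GENCODE M1 (NCBIM37), with the TSS at the 5′ end of the gene. A promoter was TSS ± 2 kb, marked with at least 1 bp of overlap, and flanks were 20 kb. Positions count from 1. Shares have 95% exact (Clopper-Pearson) intervals, which cover counting error only. On simulated data, covered bases equalled a base-by-base count in 2000 of 2000 simulated windows. Python 3.11.15, NumPy 2.4.6, SciPy 1.17.1 and matplotlib 3.10.9 were used.

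Named genes were the 6 members, every annotated gene within 20 kb, 7 paralogs, fixed lists of early gonad genes (10 counted), 10 NR5A1-controlled genes and cell type markers, and for each member the 3 protein-coding genes with the smallest mean absolute difference in covered bases within TSS ± 20 kb, leaving out genes within 100 kb, chromosome 18 and unnamed gene models. Part of the early gonad list is not reported here, and the counts for that list leave it out. The members and lists were chosen with earlier results of these data known. No comparison between populations was tested.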

Additional observations from a re-analysis of the deposited data

Results flagged for a closer look

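Several covered lengths differed in opposite directions between the XY pair (XY progenitors and Sertoli cells) and the XX pair (XX progenitors and pregranulosa cells). There was 1 list per mark and population, so none of these differences was tested, and the depth of the pregranulosa lists is unknown. Of 24 covered lengths compared for each mark, 7 for H3K4me3 and 1 for H3K27me3 were of this kind, while 10 and 14 went in the same direction in both pairs and 7 and 9 were unchanged in at least 1 pair.

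In the gene body of *Wt1*, H3K4me3 covered 11726 bp in XY progenitors and 9436 bp in Sertoli cells (a difference of -2290 bp), and 14126 bp in XX progenitors and 17815 bp in pregranulosa cells (3689 bp). The same was seen in the gene body of *Lhx9*, with 15255 bp and 11150 bp in the XY pair (-4105 bp) and 15493 bp and 18047 bp in the XX pair (2554 bp). At *Lhx9* this was lost when regions less than 5 kb apart were joined, with 74.4% and 74.7% of the gene body in the XY pair and 75.2% and 77.2% in the XX pair. *Nr5a1* had the reverse, with 4833 bp and 7507 bp in the XY pair (2674 bp) and 9272 bp and 5730 bp in the XX pair (-3542 bp).

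In the upstream flank, the difference in H3K4me3 was -1029 bp in the XY pair and 150 bp in the XX pair at *Wt1*, -2571 bp and 2457 bp at *Emx2*, and -1401 bp and 925 bp at *Cited2*. The outermost upstream region at *Emx2* began at -8113 bp in XY progenitors and -7998 bp in Sertoli cells. Most of the XY difference at *Emx2* thus lay in gaps of less than 5 kb. The downstream flank of *Cited2* gave 464 bp and -367 bp. H3K27me3 in the upstream flank of *Lhx9* covered 3235 bp in XY progenitors and 4780 bp in Sertoli cells (1545 bp), and 4199 bp in XX progenitors and 0 bp in pregranulosa cells (-4199 bp).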

How the results depend on the processing

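No paired analysis was possible because 1 list was used per group and mark, and for the same reason leaving out a replicate was not run. The number of genes with each mark at the promoter stayed within 1.5 times its value in all 36 comparisons for H3K4me3 and all 36 for H3K27me3. The single gene whose call moved was *Emx2* in Sertoli cells, which had no H3K27me3 within TSS ± 1 kb, at the TSS base or with an overlap of 2000 bp, the last chosen after seeing the data, so that 2 of 6 genes were marked there instead of 3. With an overlap of 500 bp it was still marked. Region widths were read with joining as the one setting varied. With regions less than 5 kb apart joined, 9 widths grew by more than 1.5 times, among them H3K4me3 at *Emx2* in Sertoli cells (21057 bp) and at *Nr5a1* in XX progenitors (15372 bp) and H3K27me3 at *Tcf21* in pregranulosa cells (120983 bp). The same joining brought the share of the *Lhx9* gene body under H3K4me3 in Sertoli cells from 47.7% to 74.7%, beside 74.4% in XY progenitors. Many gene body shares were 0% or 100%, and those of 100% could not rise with joining, so their stability says little. Flanks of 10 kb moved 36 of 48 flank shares, 34 of them upward. The background shares were lower when every annotated gene was counted (17.9% to 20.7% for H3K27me3). Places by width compare lists whose depth differed or is unknown.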
